A study of Rattus norvegicus with 24 samples.

Results

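The comparison set the infarcted left ventricle without a patch (MI) against the left ventricle of sham-operated rats (Sham), both at day 7. The 12 libraries with the treatment labels MI and Sham, 6 of each, were taken from 24 libraries in 4 groups; the remaining 12 came from infarcts that also carried a patch. All rats were Sprague Dawley, an outbred laboratory strain. The labels give no genotype, age or sex. MI libraries came from tissue of the infarct region, and the matching site in Sham hearts is not stated. Nor is it stated that every library stands for its own animal. The p-values below therefore describe spread among libraries, some of which may be technical.

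In a myocardial infarction, heart muscle dies because a blocked artery no longer feeds it. In the rat, the dead muscle is cleared by infiltrating white blood cells over the following days, and fibroblasts that turn into contractile, matrix-secreting cells then fill the gap with collagen-rich scar. At the end of the first week these processes overlap, and the infarct region holds far fewer muscle cells and many more immune and stromal cells than healthy ventricle. In RNA of whole tissue, fewer cells of a type and less RNA per cell cannot be told apart.

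Genes are identified by Ensembl ID only. The RefSeq gene table at hand holds 0 Ensembl IDs and the count table carries no symbols, so the tissue label was not checked against muscle, immune or fibroblast markers and no pathway could be scored. The genes are therefore described by rank, level and behaviour, and 4 IDs, the leading 2 in each direction, are given in full. Levels are CPM, read counts divided by library size and put on a common scale, with library sizes scaled by TMM, a method that corrects for differences in library composition. They are not divided by gene length, so a rank says how many reads a gene drew and not how many molecules it had.

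The MI libraries resembled each other closely, and the Sham libraries much less so. Across the 14540 tested genes, Spearman's rho of log2 CPM ran from 0.964 to 0.988 among the 15 pairs of MI libraries (median 0.982) and from 0.815 to 0.982 among the 15 pairs of Sham libraries (median 0.933). Pairs of 1 MI and 1 Sham library ran from 0.802 to 0.923 (median 0.878), so that some Sham libraries were as far from each other as from MI. The biological coefficient of variation, the spread that remains after counting error, was 21.3% in MI and 51.8% in Sham. The median gene had a standard deviation of 0.212 log2 units in MI and 0.614 in Sham, and 93.6% of genes varied more among Sham than among MI libraries.

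**Figure D1:**
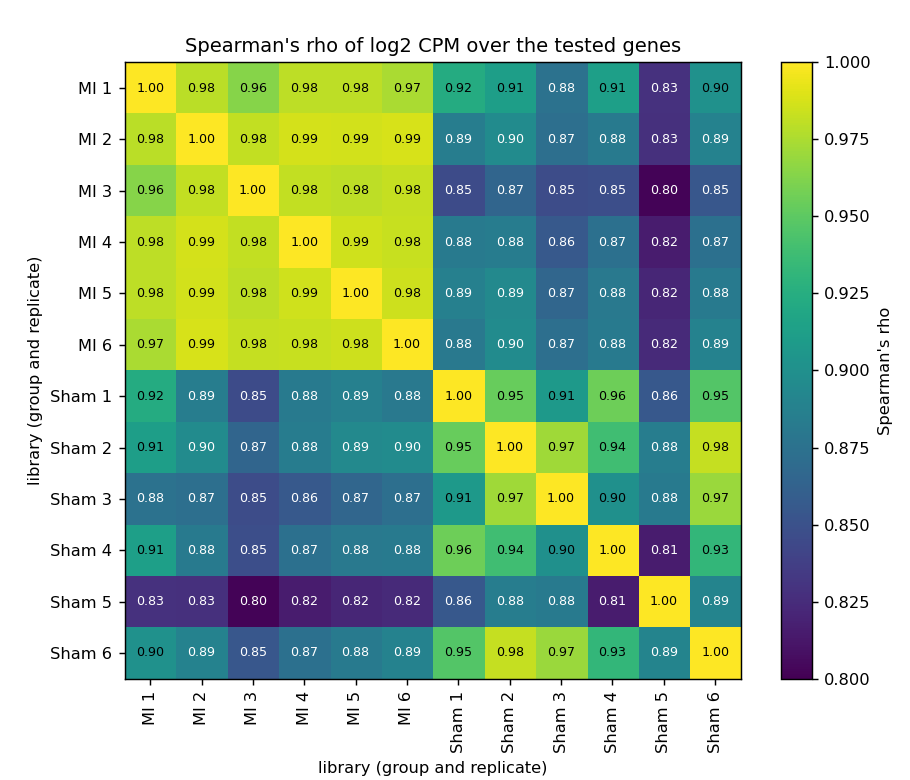
Spearman's rho of log2 CPM over the 14540 tested genes for every pair of the 12 libraries, labelled by group and replicate, with the color scale from 0.8 to 1. The MI block is uniform (0.964 to 0.988). Sham replicate 5 is dark against the MI libraries (0.802 to 0.828) and runs from 0.815 to 0.890 against the other Sham libraries. MI replicate 1 is the MI library with the highest value against Sham (0.923, with Sham replicate 1).

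Sham replicate 5 stood farthest apart. It was the shallowest library, with 5443782 counts against 8303319 to 11757562 in the other 5 Sham libraries and 12864218 to 13974505 in MI. On the first principal component of the 12 libraries, which held 47.4% of the variance, it lay at -122, the other Sham libraries between -69.5 and -48.4, and the MI libraries between 51.9 and 86.3. With every library thinned to 5443782 counts, its rho with the other Sham libraries was still 0.814 to 0.889. Without it the coefficient of variation of Sham was 42.0%.

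More genes were detected in MI than in Sham, also at equal depth. Thinned to 5443782 counts, MI libraries held between 16178 and 16439 genes with at least 1 count and Sham libraries between 13635 and 15879, so that the groups did not overlap. The means were 16291 ± 94.2 in MI and 15125 ± 1039 in Sham (SD, n = 6 each; two-sided p = 0.00216 by an exact permutation test, which is the lowest value 924 splits allow). The fewest genes were detected in Sham replicates 4 and 5, 13950 and 13635, although replicate 4 was sequenced as deeply as replicates 1 and 2 (10753596 counts against 10416686 and 10801746). Without these 2 libraries the mean difference fell from 1166 to 500 genes. Leaving out libraries cannot make groups overlap that were already apart. The two-sided p of 0.00476 by an exact permutation test, the lowest value 210 splits allow, was therefore fixed in advance and adds nothing.

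The genes that drew the most reads differed between the tissues. Of the 12 genes with the highest mean CPM in MI and the 12 highest in Sham, 2 were the same. Of the top 100 of each group 43 were shared, and of the top 1000, 657. Among the 12 leading genes of MI, 10 were called higher in MI and 2 were not called. Among the 12 leading genes of Sham, 9 were called lower, 2 higher and 1 not. Each list was ranked by level in the same libraries that were tested, so a lean to its own group is built in. Of all 14540 genes, 21.6% were called higher and 23.2% lower, and 44.7% were called in either direction.

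The leading gene of MI took 3.55% to 4.68% of all counts in each MI library. Its level ran from 34219 through a median of 40814 to 48295 CPM in MI, and from 3565 through 5170 to 7254 CPM in Sham. Every MI library was thus above every Sham library, with a mean log2 fold change of 2.92 (SE 0.17, adjusted p = 6.96e-12). It was already the gene with rank 10 in Sham. The gene with rank 2 in MI climbed from rank 51 in Sham. It ran from 21366 through 31348 to 43412 CPM in MI and from 818 through 1311 to 2647 CPM in Sham, again without overlap (adjusted p = 8.66e-12 for a log2 fold change of 4.40 with SE 0.27). Together these 2 genes took 7.32% ± 1.28 of the reads of an MI library, against 0.673% ± 0.160 of a Sham library (SD, n = 6 each).

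The steepest climb within the leading 12 of MI was made by the gene with rank 4, which had rank 2131 in Sham. Its level was 4008 to 9123 CPM in MI (median 6726) and 72.5 to 144 CPM in Sham (median 97.0), a log2 fold change of 5.98 (SE 0.26, adjusted p = 3.15e-14). The genes with MI ranks 5, 6, 7, 9 and 11 had ranks between 289 and 470 in Sham and log2 fold changes between 3.12 and 4.12, and all MI libraries were above all Sham libraries for each of them. The other 4 of the leading 12 were abundant in both tissues. Of these, the gene with rank 3 in MI (rank 4 in Sham) was higher in MI by 0.77 log2 units (SE 0.17, adjusted p = 0.000971).

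The remaining 3 moved less. The gene with rank 12 in MI was higher by 0.46 log2 units (SE 0.15, adjusted p = 0.0171), but overlapped: its MI range of 2852 to 3725 CPM lay within its Sham range of 1822 to 3816 CPM. Its call was lost when the 12 libraries were fitted alone (adjusted p = 0.0778). The genes with ranks 8 and 10 were not called, with log2 fold changes of 0.32 (SE 0.21, adjusted p = 0.236) and 0.25 (SE 0.13, adjusted p = 0.139). For rank 8 the highest library of all 12 was Sham replicate 5, at 7998 CPM, and without it the gene was called higher (log2 fold change 0.62, adjusted p = 0.00214). With all libraries kept, limma-voom with quality weights also called it (log2 fold change 0.44, adjusted p = 0.00177). That method gives outlying libraries less weight, and Sham replicate 5 had the lowest weight of the 12 (0.101, against 1.19 to 3.67 in MI). This call is therefore not independent of setting that library aside.

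**Figure D2:**
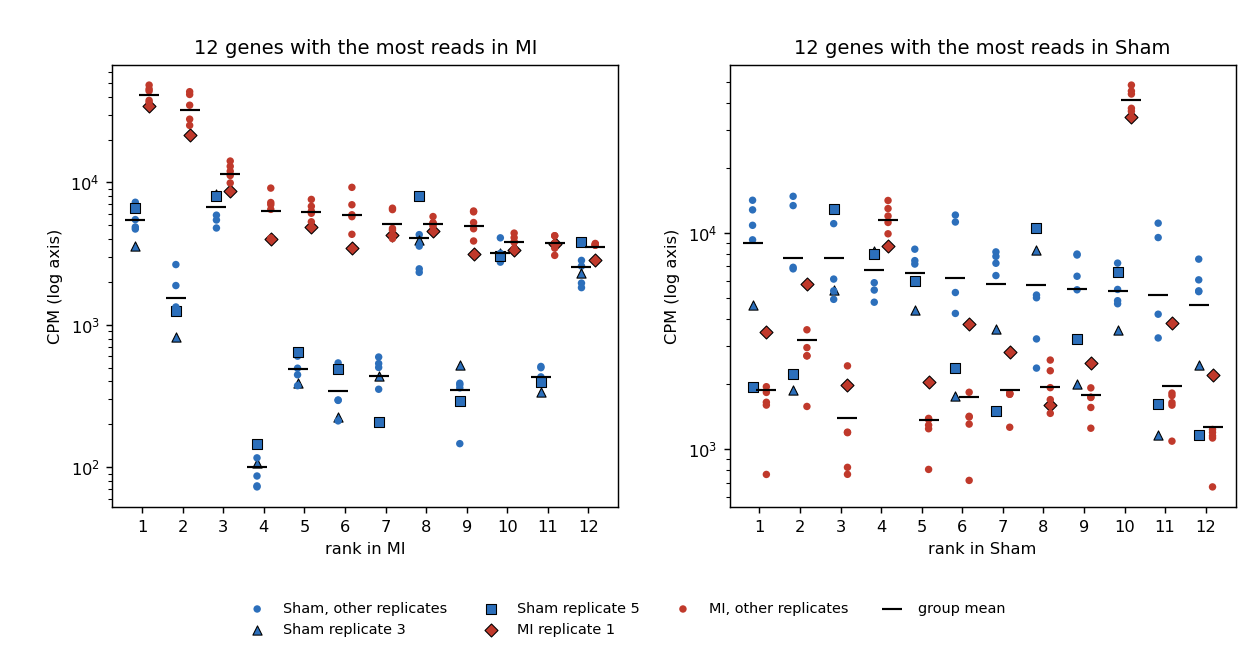
Level (CPM, log axis) in each of the 12 libraries for the 12 genes with the most reads in MI (left, by rank in MI) and in Sham (right, by rank in Sham); bars mark group means, and MI replicate 1 and Sham replicates 3 and 5 have their own symbols. The groups separate for 9 of the 12 genes on the left and 4 of the 12 on the right. Of all tested genes, every MI library was above every Sham library for 14.8% and below for 9.01%. Each list was ranked by level in the same libraries.

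The 12 genes that led Sham took 7.37% ± 1.83 of the reads of a Sham library and 7.10% ± 0.459 of an MI library (SD, n = 6 each). Without the 2 that rose, the genes with MI ranks 1 and 3, the other 10 took 6.19% ± 1.92 (3.74% to 8.30%) in Sham and 1.85% ± 0.674 (1.07% to 3.11%) in MI, without overlap. The leading gene of Sham fell to rank 32 in MI. It ran from 1937 through 10071 to 14166 CPM in Sham and from 764 through 1739 to 3473 CPM in MI (adjusted p = 0.00133, log2 fold change -2.25, SE 0.53). Overlap came from Sham replicate 5 alone, at 1937 CPM, which lay below MI replicates 1 and 6 (3473 and 1945 CPM).

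Falls without any overlap were found for the genes with ranks 3 and 5 in Sham. Rank 3 went from 4931 to 12969 CPM in Sham (median 5778) to 765 to 2428 CPM in MI (median 1195), a log2 fold change of -2.45 (SE 0.45, adjusted p = 9.48e-05). Rank 5 went from 4415 to 8413 CPM (median 6573) to 806 to 2044 CPM (median 1332), a log2 fold change of -2.27 (SE 0.40, adjusted p = 6.15e-05). Rank 5 was the steadiest of the 12 in Sham, with a coefficient of variation of 21.5%; the median of the list was 48.6% and the highest value 81.2%.

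No single Sham library was low for all of this list. Of the 9 leading Sham genes called lower, 4 had their lowest Sham level in replicate 3 and 3 in replicate 5, while replicate 4 was the highest for 4 and replicate 5 for 2. The gene with rank 2 in Sham ran from 14773 CPM in replicate 1 and 13382 in replicate 4 to 1879 in replicate 3 and 2220 in replicate 5, which overlaps with the MI range of 1576 to 5783 CPM. It was not called (log2 fold change -1.26, SE 0.54, adjusted p = 0.0636), but with all libraries kept it passed with DESeq2 (adjusted p = 0.0328) and with the replicate number as a block (adjusted p = 0.0464). It was also called when MI replicate 1, Sham replicate 3 or Sham replicate 5 was left out (adjusted p = 0.0385, 0.0315 and 0.0326), and without both Sham libraries, a choice made after seeing the data, its log2 fold change was -1.71 (adjusted p = 0.0116). The gene with rank 6 was called narrowly (adjusted p = 0.0371, log2 fold change -1.82, SE 0.70). That call was lost without any 1 of MI replicates 2 to 6 (adjusted p from 0.0571 to 0.0799), without Sham replicate 1 (0.0812), without Sham replicate 4 (0.0878) and with no filter on low counts (0.0658). Without Sham replicate 1 the gene with rank 11 lost its call too (adjusted p = 0.0653).

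Over all tested genes the share called rose with the level, and the balance between rises and falls turned over. Of the 879 genes with a mean under 1 CPM over the 12 libraries, 28.1% were called higher and 1.93% lower. Genes this low pass the low-count filter mainly through the libraries that hold them, MI, Sham or patch. The shares in this lowest class therefore depend in part on the filter. Among the 3791 genes at 1 to 10 CPM the shares were 21.7% and 14.2%. Among the 7768 genes at 10 to 100 CPM they were 20.2% and 26.5%, and among the 2015 genes at 100 to 1000 CPM 22.9% and 35.7%. Of the 87 genes above 1000 CPM, 34.5% were called higher and 43.7% lower. Lowly expressed genes also varied most in both groups. Under 1 CPM the median standard deviation was 1.14 log2 units in Sham and 0.609 in MI. At 100 to 1000 CPM it was 0.482 in Sham and 0.152 in MI.

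**Figure D3:**
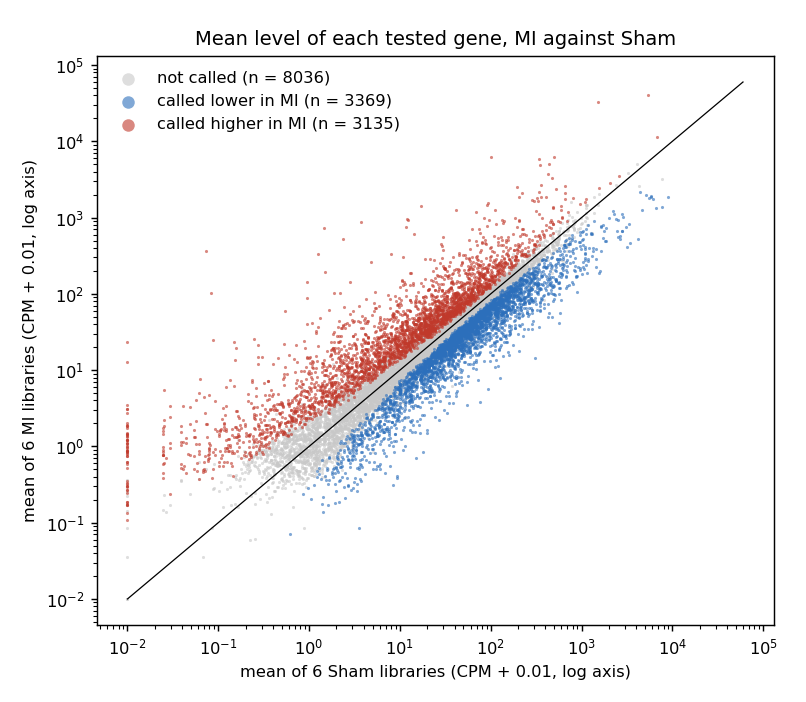
Mean level of the 14540 tested genes in the 6 Sham libraries (horizontal, CPM plus 0.01, log axis) and the 6 MI libraries (vertical, same scale), with the line of equality. The 3135 genes called higher in MI extend far to the upper left, including a column of genes with no count in Sham, while the 3369 called lower form a tighter band under the line.

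The rises had a long tail and the falls did not. Of the genes called higher, 1026 changed less than 2-fold, 1177 changed 2- to 4-fold, 739 changed 4- to 16-fold and 193 changed more than 16-fold. Of those called lower, 1753 changed less than 2-fold, 1222 changed 2- to 4-fold, 385 changed 4- to 16-fold and 9 changed more than 16-fold. Every MI library was above every Sham library for 2145 genes (14.8% of those tested), of which 2091 were also called. Every MI library was below every Sham library for 1310 genes (9.01%), of which 1296 were called.

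A further 580 genes differed at least 2-fold between the group means without being called, 327 higher and 253 lower in MI. Their median standard deviation in Sham was 1.40 log2 units, against 0.563 for the called genes, and their median standard error was 0.662 against 0.246. At the other end, 3754 genes that were not called (25.8% of those tested) had fold changes under 1.2.

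The steepest rises were of genes with low levels in Sham, where their means ran from 0 to 3.74 CPM. Among the 2280 genes called higher with at least 10 CPM in MI, the 12 with the largest fold changes had fitted log2 fold changes from 7.12 to 12.15, and the groups did not overlap for any of them. Because this choice was made by fold change, the separation is part of the selection. Where Sham holds few counts the fitted value depends on a small constant added to the counts and is not a measured ratio.

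ENSRNOG00000002548 led this list. It had 4 counts over the 6 Sham libraries, 2 libraries at 0.202 and 0.174 CPM and 4 at 0. In MI it ran from 38.9 CPM in replicate 1 through a median of 368 to 680 CPM in replicate 3 (mean 367 ± 272, SD, n = 6). The fitted log2 fold change was 12.15 (SE 0.82, adjusted p = 5.03e-11), and each of the 6 MI libraries exceeded all Sham libraries. The 12 libraries with a patch held it at 388 to 1446 CPM.

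ENSRNOG00000007866 had no count in any Sham library. In MI it ran from 8.39 CPM in replicate 1 through a median of 27.0 to 28.8 CPM in replicate 3 (mean 23.1 ± 8.09, SD, n = 6; adjusted p = 1.48e-11). Against a floor of 3 counts over the whole Sham group, 0.0535 CPM, the mean level in MI was at least 432-fold higher. Such a floor allows for counting error alone: without molecular identifiers, reads are not independent molecules. In the 12 libraries with a patch this gene stood at 84.6 to 169 CPM, above every MI library; that difference was not tested here.

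Of the other 10 genes of the list, 1 also had no count in Sham, and its mean MI level of 12.6 CPM (3.67 to 30.2 CPM) was at least 236-fold above the same floor. The rest had between 4 and 194 counts in Sham. The smallest standard error of the 12 was that of the gene with rank 9, at 346 to 718 CPM in MI and 1.40 to 2.93 CPM in Sham (adjusted p = 1.05e-15, log2 fold change 7.82, SE 0.29). The highest level was that of the gene with rank 8, 117 to 1633 CPM in MI against 0.202 to 7.83 CPM in Sham. The gene with rank 6 was the least even, at 0.899 CPM in MI replicate 1 and 69.4 CPM in replicate 3, and limma-voom did not call it (adjusted p = 0.0836). For all 12 genes, every library with a patch was also above every Sham library. Low Sham levels are part of how these genes were chosen, and the share over all tested genes was not counted.

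MI replicate 1 was the lowest of the 6 MI libraries for 12 of these 12 genes, and it was the lowest for 10 of the 12 genes with the most reads in MI. The pattern ran through the wider lists. It was the lowest MI library for 49.2% of the 932 genes called at least 4-fold higher (6.41% of those tested) and the highest for 52.0% of the 394 called at least 4-fold lower (2.71%). Over all tested genes it was the lowest for 25.6% and the highest for 23.1%. MI replicate 3 stood at the other end, as the highest MI library for 41.1% of the 932 genes, against 21.1% of all tested genes.

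**Figure D4:**
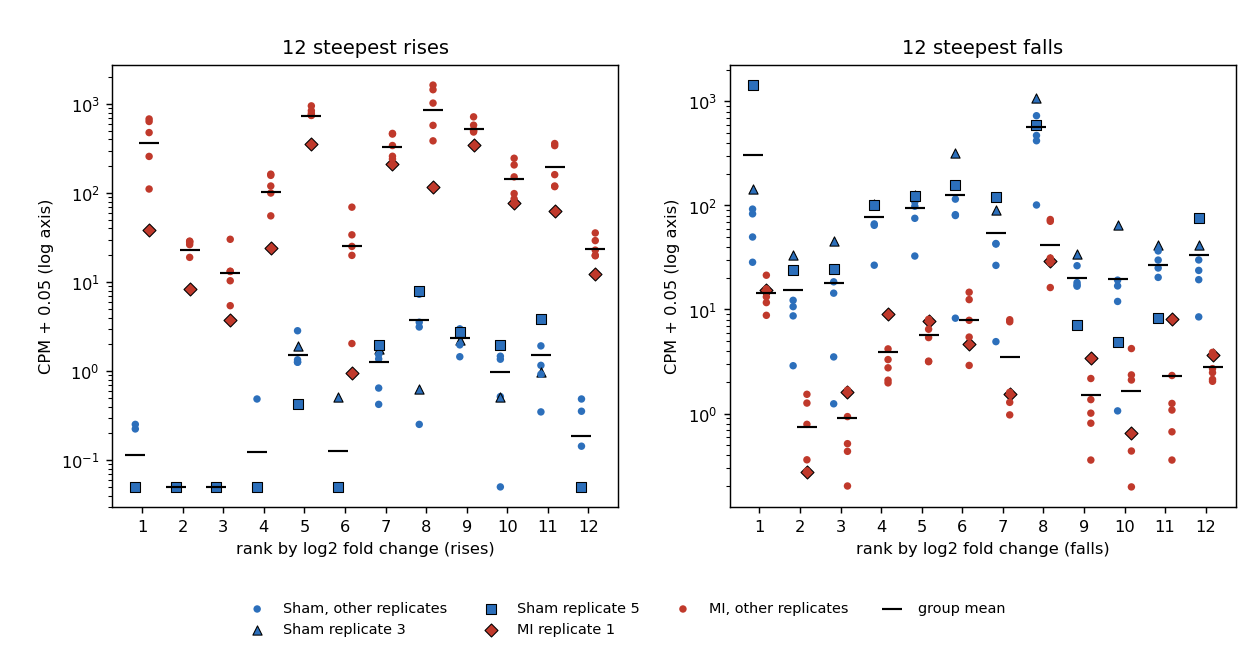
Level (CPM plus 0.05, log axis) in each of the 12 libraries for the 12 steepest rises (left) and falls (right) by rank; bars mark group means, and points at 0 CPM lie on top of each other at 0.05. MI replicate 1 is the lowest MI library for each of the 12 rises, and Sham replicate 3 or 5 is the highest Sham library for each of the 12 falls.

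The steepest falls were shallower than the rises and less even. Among the 2945 genes called lower with at least 10 CPM in Sham, the 12 with the largest falls had log2 fold changes from -4.41 to -3.57, and all 6 MI libraries were below all 6 Sham libraries for 8 of them. The highest Sham level was in replicate 3 for 9 of the 12 genes and in replicate 5 for the remaining 3. These genes were chosen by fold change, so the separation is part of the selection. Such a choice also favours genes with a high level in single Sham libraries. Over the 394 genes called at least 4-fold lower, replicate 3 was the highest Sham library for 27.2% and replicate 5 for 29.9%, against 18.1% and 28.9% of all tested genes. In 7 of the 12 genes every library with a patch was below every Sham library. High Sham levels are part of the selection here too, and the share over all tested genes was not counted.

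ENSRNOG00000062158 led the falls on the strength of 1 library. In Sham it ran from 28.4 CPM through a median of 87.6 to 1436 CPM, the last in replicate 5, with 145 CPM in the next highest library. In MI it ran from 8.74 through 14.2 to 21.3 CPM. All 6 MI libraries lay below all 6 Sham libraries, at a log2 fold change of -4.41 (SE 0.71, adjusted p = 2.07e-05). Without Sham replicate 5 the log2 fold change shrank to -2.48 (adjusted p = 1.43e-06).

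ENSRNOG00000003704 fell from a range of 2.83 to 33.1 CPM in Sham (median 11.4) to 0.225 to 1.48 CPM in MI (median 0.523), where it had 57 counts over the 6 libraries. No MI library reached the lowest Sham library. The fit gave -4.41 log2 units (SE 0.60, adjusted p = 2.33e-06), and this value stayed between -4.78 and -4.02 when each library was left out in turn. Its highest Sham levels were in replicates 3 and 5 (33.1 and 23.7 CPM). Without both, a choice made after seeing the data, the value was -3.59. In the 12 libraries with a patch it stood at 0.0667 to 1.18 CPM.

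Of the other 10 falls, the largest in level was the gene with rank 8, which went from 101 to 1077 CPM in Sham to 16.2 to 73.2 CPM in MI (adjusted p = 2.49e-06, log2 fold change -3.77, SE 0.52). The genes with ranks 4 and 5 had the lowest adjusted p-values of the 12. Rank 4 went from 26.6 to 104 CPM to 1.92 to 8.92 CPM (log2 fold change -4.32, SE 0.49, adjusted p = 1.49e-07), and rank 5 from 32.6 to 127 CPM to 3.10 to 7.99 CPM (-4.06, SE 0.48, adjusted p = 2.56e-07). Overlap was found for the genes with ranks 3, 6, 7 and 10, in which 3 or 4 of the 6 MI libraries were below every Sham library.

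Absence was one-sided. In all, 53 genes had at most 3 counts over the 6 Sham libraries, a mean of at least 1 CPM in MI and a call, and 0 genes met the reverse condition, either called or not. All 53 were detected in each of the 6 MI libraries, and 44 had more than 3 counts in each. In Sham, replicates 1 to 6 held 6, 10, 6, 0, 1 and 11 of the 53 genes. Their summed level was 74.4 to 182 CPM in MI and 0 to 1.57 CPM in Sham. Of the 53, 25 had no Sham count at all. The low Sham values follow from the condition that chose these genes and are given as a description. The low-count filter shapes the 53 and the 0 too. A gene absent from MI and from the patch libraries passes it only with enough counts in all 6 Sham libraries. A gene absent from Sham can pass through the MI or the patch libraries.

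These genes were mostly low in MI too: their mean ran from 1.01 to 23.1 CPM with a median of 1.57, and 2 exceeded 10 CPM. Those 2 are the rises with ranks 2 and 3 above. MI replicate 1 was again low, as the lowest MI library for 24 of the 53. In the libraries with a patch, 47 of the 53 were detected in all 12.

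The Sham libraries were shallower than the MI libraries. With all libraries thinned to the same total, 82 genes were near absent from Sham and 3 from MI. With a limit of 10 counts instead of 3, 114 genes were near absent from Sham and 2 from MI. By group means, 31 genes called higher were under 1 CPM in Sham and at least 10 CPM in MI, and 3 genes called lower showed the reverse. When 1 CPM was enough on the high side, the numbers were 415 and 133, a less one-sided split.

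**Figure D5:**
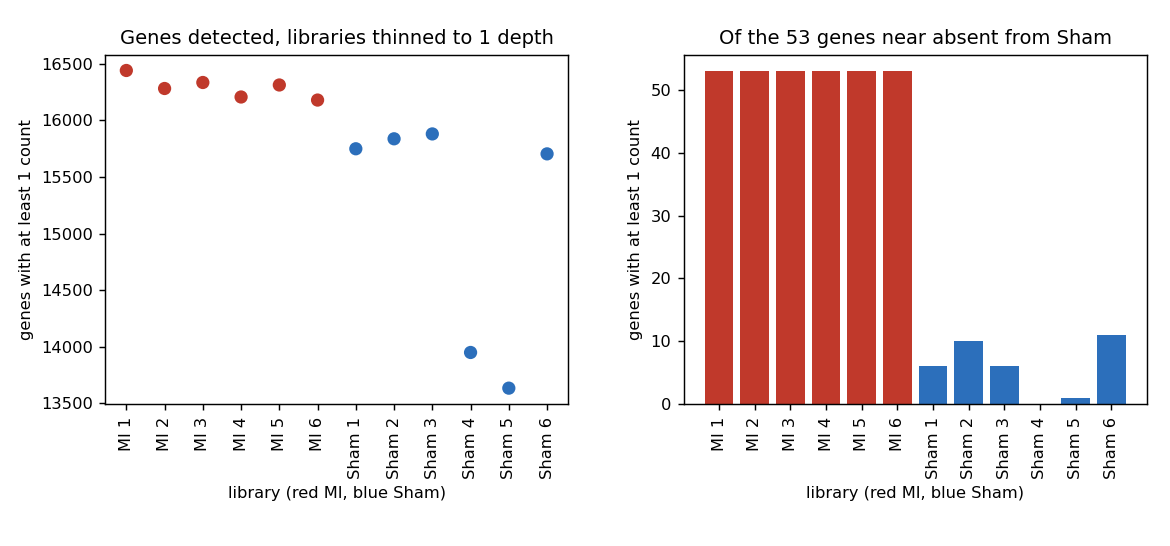
Left: number of genes with at least 1 count in each library after thinning to 5443782 counts, on an axis that starts above 0; the 6 MI libraries lie at 16178 to 16439 and the 6 Sham libraries at 13635 to 15879. Right: how many of the 53 genes near absent from Sham have at least 1 count in each library, 53 in every MI library and 0 to 11 in Sham; the low Sham numbers follow from how the genes were chosen.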

How the data were processed

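The deposited table holds read counts per Ensembl gene ID as whole numbers, not normalized; HISAT2, featureCounts and the build rn6 appear in the submitters' processing notes. Versions, annotation and strand use: not given in the sources used here, so overlapping, antisense and near-identical genes may share counts. Columns were matched to samples by the code in each title. Genes were kept by filterByExpr (edgeR 4.0.16, R 4.3.3, minimum count 10), which left 14540 of 32883 IDs with 99.6% to 99.9% of counts. All 24 libraries entered 1 TMM-scaled fit of 4 group means, tested by edgeR's robust quasi-likelihood F test. Each gene has 1 spread for all 4 groups, with 20 residual degrees of freedom. The fit does not model the unequal spread of MI and Sham (21.3% and 51.8%). With the 12 libraries fitted alone, the adjusted p of the leading MI gene was 1.06e-06 instead of 6.96e-12. A gene was called at a Benjamini-Hochberg adjusted p below 0.05 over all tested genes; adjusted p-values without a tool's name are from edgeR. Standard errors are the absolute log2 fold change over the square root of F. The fit was also run on simulated counts with 1 spread per gene shared by all 4 groups. That run cannot show how the fit behaves where the spreads of MI and Sham differ. Alternatives used DESeq2 1.42.0 and limma 3.58.1. Every limma-voom value is from a fit with quality weights, in which outlying libraries count less.

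Genes described were the 12 with the highest mean CPM in each group, the 12 steepest called changes each way that reached a mean of 10 CPM in either group, and genes near absent from 1 group. Gene lists could not be run without symbols (0 lists). The comparison and these rules were chosen with earlier results of these data known. No 2 libraries of a group agreed within sampling noise (lowest chi-square per degree of freedom 14.6).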

Additional observations from a re-analysis of the deposited data

Results flagged for a closer look

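A single library far from the other 5 of its group was found in 16 of 98 groups of values checked. Independent values with a normal distribution would give about 1 in 20. That rate does not apply here: the CPM were not log-transformed, many genes were chosen for extreme changes, and the genes share libraries. In MI the library set apart was replicate 1 in 8 of 9 cases. It was the lowest for the rise with rank 5 (352 CPM, the next library at 744) and for the gene with rank 12 in MI (2852 CPM, next 3615). It was the highest for the falls with ranks 4 (8.92 CPM, next 4.13) and 11 (8.02 CPM, next 2.27). The same held for the genes with ranks 6, 7, 11 and 12 in Sham, at 3788, 2809, 3815 and 2196 CPM, where the next libraries stood at 1833, 1820, 1817 and 1233 CPM. The remaining MI case was replicate 4, at 30.2 CPM for the rise with rank 3 (next 13.2).

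In Sham, replicate 5 was the highest for ENSRNOG00000062158 (1436 CPM, next 145) and for the gene with rank 8 in MI (7998 CPM, next 4297), and the lowest on the first principal component (-122, next -69.5). Replicate 3 was the highest for the fall with rank 10 (64.4 CPM, next 19.1). Replicate 2 was the highest for the gene with rank 10 in MI (4080 CPM, next 3197). For the rises with ranks 4 and 6 a single library held all Sham counts, replicate 6 at 0.436 CPM and replicate 3 at 0.460 CPM.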

How the results depend on the processing

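The count of 6504 called genes stayed within 1.5 times under 10 of 11 alternatives, from 5560 with the 12 libraries fitted alone to 8497 with limma-voom; a 2-fold minimum left 3725, of which 1616 were lower. Leaving out 1 library gave 5807 (without MI replicate 3) to 7166 (without Sham replicate 5), with 2807 to 3406 higher and 3000 to 3760 lower. No call of the 6504 changed sign except 5 with limma-voom, 3 without Sham replicates 3 and 5 and 1 without MI replicate 6. The genes near absent from Sham numbered 25 with no count allowed, 114 with 10 and 82 after thinning, and those near absent from MI 2 with 10 counts and 3 after thinning. The coefficient of variation of Sham was 42.0% without replicate 5, 39.9% without replicates 3 and 5 and 36.9% without replicates 4 and 5, all added after seeing the data, as were upper-quartile scaling and the call counts without replicates 3 and 5. With the replicate number as a block 6538 genes were called; the numbers share no stated source, deviations of same-numbered libraries correlated between 0.00594 and 0.333 across genes, and 2 of 6 MI libraries correlated best with their own number. Of 1058 values of the 46 described genes under 23 alternatives, leaving out each library included, 1034 kept their side of the threshold, 14 lost and 10 gained a call, and 0 reversed. The fitted rise with rank 4 went from 10.04 to 13.34 without Sham replicate 6, and that with rank 6 from 8.27 to 11.33 without Sham replicate 3. Genes under the floor of 3 counts, 0.215 to 0.233 CPM in MI and 0.255 to 0.551 CPM in Sham, could not be measured per library.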
